A study of Mus musculus with 4 samples.

Results

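Aminoacyl-tRNA synthetases join each amino acid to its tRNA. Their mRNAs were followed in primary mouse hepatocytes that lack Prom1, a gene for a membrane glycoprotein of plasma-membrane protrusions. The 36 members were taken by name, 20 enzymes of the cytosol and 16 of the mitochondria (symbols ending in ars2), out of 22079 gene identifiers in the deposited table. All 36 had a row and all 36 passed the filter on low values, which required 1 FPKM or more in the average of the 4 libraries. FPKM, the fragments of a transcript scaled to its length and to the size of the library, is corrected for transcript length, so levels of different genes can be compared. Mars1 is named Mars in the annotation used.

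The tested libraries came from Prom1-/- mice (KO, n = 2 biological replicates) and the others from wild-type mice (WT, n = 2). All animals were C57BL/6 males of 8 weeks. Isolated hepatocytes attached for some hours in medium with serum and dexamethasone, a synthetic glucocorticoid, and both genotypes were then kept overnight without serum. How the Prom1 allele was made is not given in the sources used here.

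Charging happens in separate compartments of the cell. Cytosolic enzymes supply the ribosomes that make nearly all proteins, and a second set, encoded in the nucleus and imported, supplies the ribosomes inside mitochondria. Several cytosolic enzymes are held in a multi-synthetase complex by the scaffold proteins Aimp1, Aimp2 and Eef1e1. When amino acids run short or proteins misfold, kinases that phosphorylate eIF2 favour translation of the transcription factor ATF4, and ATF4 is known to raise mRNAs of many cytosolic synthetases together with those of amino acid synthesis and uptake. Hepatocytes use this machinery heavily because they secrete most plasma proteins.

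The deleted gene went with the labels in every library: Prom1 had 0.0458 FPKM in KO 2 and a listed 0 in KO 1, against 0.571 FPKM in WT 1 and 1.22 FPKM in WT 2. With a mean of 0.459 FPKM, Prom1 lay under the filter on low values. In a fit without that filter it was not called either (limma adjusted p = 0.755). From low values of genes with 1 transcript, the libraries were roughly estimated to hold 15100000 to 17300000 fragments. By that estimate 1 FPKM of a 2 kb transcript stands for 30.3 to 34.6 fragments. Only values inside a range set beforehand were used, which limits what the estimate could give, so it is not a measured depth. All 11 hepatocyte markers passed the filter. One of them, the albumin gene Alb, was listed at 0 in WT 2 and between 25600 and 32700 FPKM in the other libraries. In WT 2 the marker Apoa1 stood at 6230 FPKM, against 5500 to 5830 FPKM in the other libraries. Ttr stood at 1870 FPKM, against 1370 to 1880 FPKM. Other markers were less even. In WT 2 Fgb stood at 811 FPKM, against 358 to 459 FPKM in the other libraries. Cps1 stood there at 535 FPKM, against 201 to 345 FPKM. Hnf4a had 64.9 and 59.5 FPKM in KO, against 90.4 and 95.8 FPKM in WT, without overlap. Its log2 difference was -0.575 (limma adjusted p = 0.47). Of the 11 markers, 4 had a positive and 7 a negative difference. Whether the 0 of Alb is a failed estimate was not tested, and the value stayed in the fit. Across 10407 genes, Alb included, WT 2 had correlations of 0.976 and 0.981 with KO 1 and KO 2, against 0.988 for WT 1 with either KO library. Replicates correlated at 0.986 within KO and at 0.986 within WT, also below the values of WT 1 with KO. The part of Alb in the values of WT 2 was not tested. Markers of sinusoidal endothelial cells summed to 65.3 FPKM in KO 1 and 34.1 FPKM in KO 2, against 47.0 and 44.1 FPKM in WT 1 and WT 2. Stellate cell markers summed to 24.7 and 10.8 FPKM in KO 1 and KO 2 and to 14.1 and 16.4 FPKM in WT 1 and WT 2, with 2 of 9 markers passing the filter. The macrophage sums were 20.1 and 20.9 FPKM in KO and 17.4 and 18.5 FPKM in WT, and 0 of 7 lymphocyte markers passed the filter. Cholangiocyte markers summed to 36.9 FPKM in KO 1 and 23.1 FPKM in KO 2. They summed to 35.5 and 32.4 FPKM in WT 1 and WT 2. Of these 6 markers 2 passed the filter, and Spp1 was the highest.

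No synthetase mRNA was called different between Prom1-/- and wild-type hepatocytes, by a test that called no gene of the whole table. With 2 libraries a genotype, this does not show that the levels were equal. By limma on log2(FPKM + 1), 0 of 36 members fell under 0.05 in adjusted p (Benjamini-Hochberg over all tested genes), with 0.687 as the lowest value of a member. The same test called 0 of 10407 genes (0%). At an unadjusted p under 0.05, 0 members were higher and 0 lower in KO, where 3.1% of all tested genes were higher and 4.19% lower. Log2 differences of the members ran from -0.39 to 0.29. Their median absolute size was 0.087, against 0.118 for all tested genes, and their median SD within a genotype was 0.095, against 0.125. In libraries made from a cell population, fewer cells of a type and less RNA per cell cannot be told apart.

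Cytosolic enzymes lay slightly more often on the higher side in KO, and mitochondrial enzymes did not. Of the 20 cytosolic members, 15 had a positive log2 difference and 5 a negative one, with a median of 0.063, beside 49.7% positive and a median of -0.001 for all tested genes. Log2 levels were also centred on each gene's mean. Their median over the cytosolic members was 0.012 in KO 1 and 0.049 in KO 2. It was 0.001 in WT 1 and -0.044 in WT 2, so that KO 1 was close to WT 1. Of the 16 mitochondrial members, 8 were positive and 8 negative, with a median of -0.003. In 7 cytosolic and 3 mitochondrial members the libraries did not overlap and KO was the higher genotype, which is 10 of 36 members beside 18.3% of all tested genes. KO was the lower genotype without overlap in 1 cytosolic and 2 mitochondrial members, 3 in all, beside 19.8% of all tested genes. The members were chosen with earlier results of these data known, so neither class was tested as a list. The median of the cytosolic class was 0.099 without KO 1, the library with the highest endothelial and stellate marker sums, whose part in the result was not tested, and 0.052 without WT 2.

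**Figure D1:**
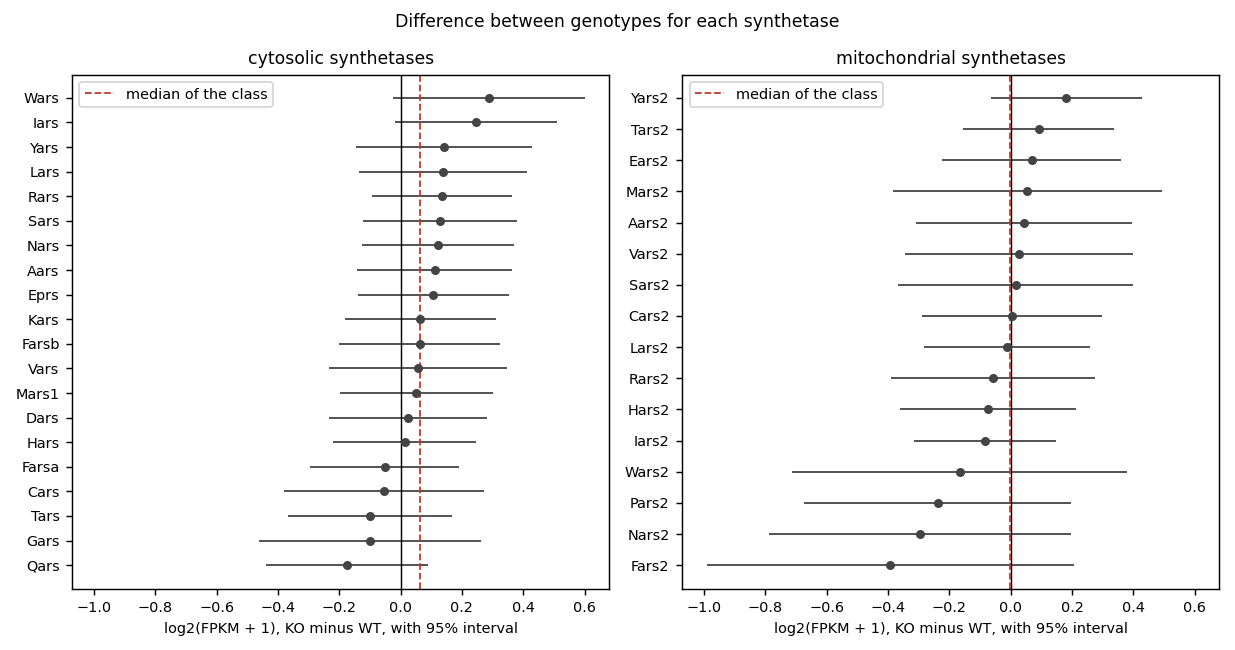
Log2(FPKM + 1) difference, KO minus WT, of each synthetase (points) with its 95% interval from limma, for 20 cytosolic enzymes (left) and 16 mitochondrial enzymes (right). Every interval includes 0, and the dashed class medians stand at 0.063 and -0.003.

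Among the cytosolic enzymes Iars and Wars had the largest moderated t. Iars, the isoleucyl-tRNA synthetase, lies on the plus strand of chromosome 13, 49682100 to 49734267 in mm10. It stood at 94.7 and 102 FPKM in KO 1 and KO 2, against 87.4 and 77.9 FPKM in WT 1 and WT 2. Both KO libraries were above both WT libraries, and the log2 difference was 0.25 (SE 0.11, 95% interval -0.02 to 0.51; limma adjusted p = 0.687). Wars, the tryptophanyl-tRNA synthetase, is also known as a gene induced by interferon gamma. Its gene is at chr12:108860030-108894174 (minus strand), and it was the least abundant cytosolic member.

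Wars stood at 20 and 18.1 FPKM in KO 1 and KO 2 and at 16.8 and 14.1 FPKM in WT 1 and WT 2, with a log2 difference of 0.29 (SE 0.13, interval -0.03 to 0.60; limma adjusted p = 0.689). WT 2 was the lowest library for both genes. Without WT 2 the difference was 0.16 for Iars and 0.17 for Wars, and without WT 1 that of Wars was 0.41.

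Qars, the glutaminyl-tRNA synthetase, was the only cytosolic member with both KO libraries below both WT libraries. Its gene lies on the plus strand of chromosome 9, 108507706 to 108515941. Qars stood at 63.3 and 67.9 FPKM in KO 1 and KO 2, against 69.8 and 78.7 FPKM in WT 1 and WT 2, a log2 difference of -0.17 (SE 0.11, interval -0.44 to 0.09; limma adjusted p = 0.763). WT 2 was the highest library here, and the difference was -0.09 without it.

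The next cytosolic members with a large moderated t had differences between 0.13 and 0.14. The arginyl enzyme Rars had 43.8 and 42.7 FPKM in KO 1 and KO 2, against 38.8 and 39.8 FPKM in WT 1 and WT 2. Its libraries did not overlap between genotypes, and the log2 difference was 0.13 (SE 0.09; limma adjusted p = 0.793). The seryl enzyme Sars had 111 and 107 FPKM in KO, against 105 and 94.6 FPKM in WT 1 and WT 2, again without overlap and with WT 2 lowest. Lars, the leucyl enzyme, also reports leucine to the growth regulator mTORC1. It stood at 32.7 and 30.6 FPKM in KO and at 30.6 and 26.8 FPKM in WT 1 and WT 2, so that KO 2 and WT 1 met.

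Nars and Gars were the most abundant members. The asparaginyl enzyme Nars had 126 and 122 FPKM in KO, against 119 and 109 FPKM in WT 1 and WT 2, a log2 difference of 0.12 with no overlap. Gars, the glycyl enzyme, which serves both the cytosol and the mitochondria from 1 gene, had 97.5 and 128 FPKM in KO 1 and KO 2 and 122 and 118 FPKM in WT 1 and WT 2. KO 1 was its lowest library and KO 2 its highest, and the difference changed from -0.10 to 0.095 when KO 1 was left out. Kars is likewise known to serve both compartments, and both genes were counted as cytosolic. The phenylalanyl enzyme is built of the subunits Farsa and Farsb. Farsa was among the least abundant cytosolic members, at 20.5 and 21.1 FPKM in KO, against 21.1 and 22.1 FPKM in WT. The remaining 11 cytosolic members had means of 21.7 to 96.5 FPKM and log2 differences of -0.10 (Tars) to 0.14 (Yars). Of these, the alanyl enzyme Aars (72.1 and 72.5 FPKM in KO, against 70.8 and 63.1 FPKM in WT, 0.11) and the bifunctional glutamyl-prolyl enzyme Eprs (0.11) had libraries that did not overlap.

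**Figure D2:**
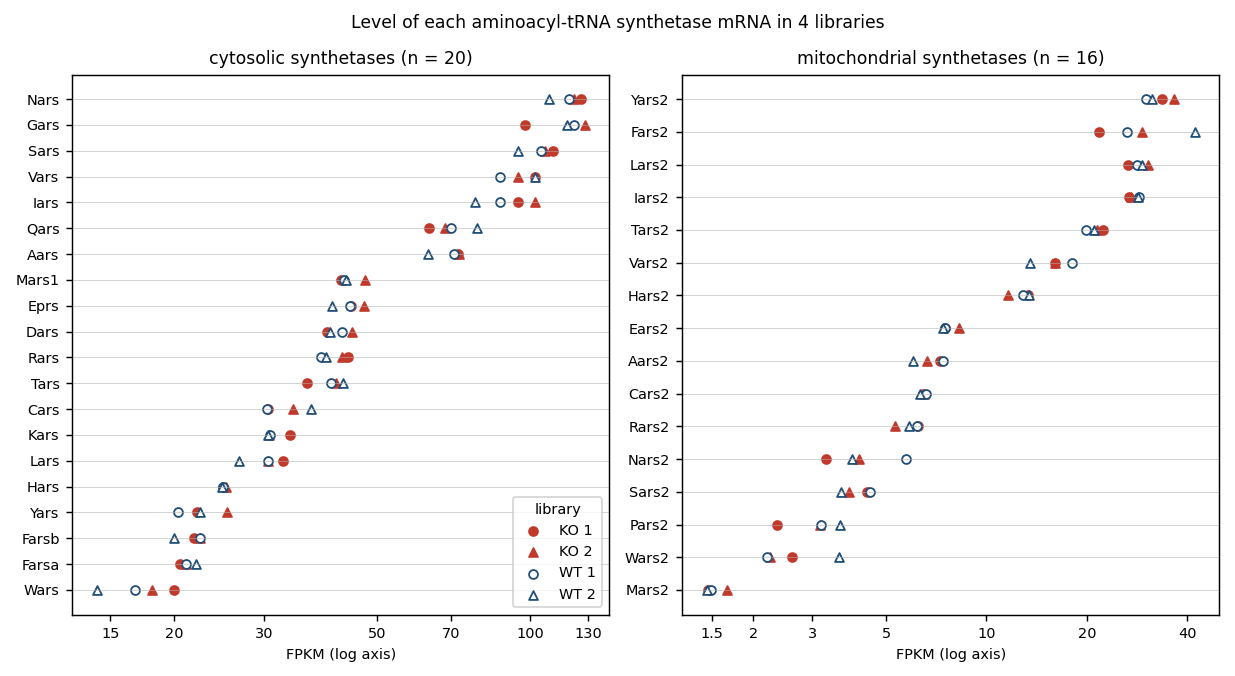
FPKM (log axis) of each cytosolic (left) and mitochondrial (right) synthetase in KO 1, KO 2 (filled), WT 1 and WT 2 (open), ordered by mean level. Genes differ far more from one another than libraries do: cytosolic means run from 17.2 to 119 FPKM and mitochondrial means from 1.52 to 32.9 FPKM.

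Yars2 had the largest moderated t among the mitochondrial enzymes. It encodes the mitochondrial tyrosyl enzyme and lies on the plus strand of chromosome 16, 16302965 to 16309640. Yars2 stood at 33.6 and 36.4 FPKM in KO, against 30 and 31.4 FPKM in WT, without overlap (log2 difference 0.18, SE 0.10, interval -0.07 to 0.43; limma adjusted p = 0.733). It was the most abundant mitochondrial member.

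Fars2, the mitochondrial phenylalanyl enzyme, had the difference of largest size but rested on WT 2. Fars2 stood at 21.8 and 29.2 FPKM in KO 1 and KO 2, against 26.4 and 42.2 FPKM in WT 1 and WT 2. KO 2 was thus above WT 1, and WT 2 stood above the other 3 libraries. The log2 difference was -0.39 (SE 0.24, interval -0.99 to 0.21; limma adjusted p = 0.764) and -0.06 without WT 2. Fars2 lies on the plus strand of chromosome 13, 36117412 to 36726280, and shares 501 exonic bases with Nrn1 on the opposite strand (146 and 89.8 FPKM in KO, 174 and 138 FPKM in WT). Whether counting used strand is not given in the sources used here, so reads of the shared stretch cannot be assigned with certainty.

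Nars2 and Pars2, for asparagine and proline in mitochondria, were also lower in the mean of KO. Nars2 had 3.30 and 4.16 FPKM in KO and 5.74 and 3.96 FPKM in WT 1 and WT 2, with overlapping libraries and a log2 difference of -0.29 (SE 0.20; limma adjusted p = 0.791). Pars2 had 2.35 and 3.17 FPKM in KO, against 3.19 and 3.64 FPKM in WT, where KO 2 lay just under WT 1. Its log2 difference was -0.24 (SE 0.18; limma adjusted p = 0.813). Without KO 1 the difference was -0.16 for Nars2 and -0.08 for Pars2, and without WT 1 that of Nars2 was -0.075.

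Iars2 and Tars2 had close replicates. The mitochondrial isoleucyl gene Iars2 stood at 26.8 and 27.1 FPKM in KO, against 28.6 and 28.5 FPKM in WT. Its genotypes did not overlap, but the log2 difference was only -0.083 (SE 0.09), and Iars2 shares 2034 exonic bases with Rab3gap2 on the opposite strand. Tars2, the threonyl gene, stood at 22.3 and 21.4 FPKM in KO and at 19.9 and 21 FPKM in WT, a log2 difference of 0.09 (SE 0.10).

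The least abundant members were Wars2 and Mars2. Wars2, the tryptophanyl gene, had 2.61 and 2.24 FPKM in KO and 2.19 and 3.62 FPKM in WT 1 and WT 2. Mars2, the methionyl gene, had 1.46 and 1.67 FPKM in KO and 1.49 and 1.45 FPKM in WT. Both overlapped between genotypes, and their differences of -0.17 (Wars2) and 0.05 (Mars2) lay within the spread between libraries. The remaining 8 mitochondrial members had means of 4.10 to 28.7 FPKM and log2 differences of -0.073 (Hars2) to 0.069 (Ears2). Of these, Ears2, the mitochondrial glutamyl enzyme, alone had no overlap, at 7.52 and 8.25 FPKM in KO, against 7.5 and 7.43 FPKM in WT, with KO 1 and WT 1 nearly equal.

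Cytosolic enzymes were the more abundant class. Their median over genes of the mean level was 41.6 FPKM, against 7.25 FPKM for the mitochondrial enzymes and 12.5 FPKM for all tested genes. All 20 cytosolic members and 7 mitochondrial members lay above that last value. Cytosolic members summed to 1079 and 1126 FPKM in KO 1 and KO 2, against 1068 and 1049 FPKM in WT 1 and WT 2. Mitochondrial members summed to 201.9 and 214.1 FPKM in KO, against 209.0 and 221.4 FPKM in WT. The cytosolic sum was therefore 5.35 and 5.26 times the mitochondrial one in KO, and 5.11 and 4.74 times in WT 1 and WT 2. Both KO libraries were higher in this ratio. Fars2 carried much of the low value in WT 2: without Fars2 the ratios were 5.99 and 6.09 in KO and 5.85 in each WT library. All 36 members together took 0.245% to 0.257% of the total FPKM in KO and 0.244% to 0.245% in WT. The total of WT 2 holds Alb at 0, while each of the other libraries holds 25600 to 32700 FPKM of it. The share in WT 2 was therefore taken on an unlike total.

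The balance between compartments differed widely by amino acid. Matched enzymes formed 17 pairs, with Eprs and Fars2 each used in 2 pairs, and in 13 pairs the cytosolic mRNA was higher in all 4 libraries. The ratio of Mars1 to Mars2 was 29.1 and 28.5 in KO and 29.0 and 30 in WT, the highest mean ratio of the 17, and it hardly varied. Sars exceeded Sars2 by 25.2 and 27.7 times in KO and by 23.4 and 25.8 times in WT. At the other end, Yars mRNA was lower than that of Yars2, with ratios of 0.661 and 0.698 in KO and 0.679 and 0.715 in WT.

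Farsa was also below Fars2 in every library, with ratios of 0.943 and 0.723 in KO and 0.799 and 0.524 in WT. Lars and Lars2 were near equality, at 1.23 and 0.998 in KO and 1.08 and 0.914 in WT. Both KO ratios exceeded both WT ratios for 4 of 17 pairs (Eprs to Pars2, Iars to Iars2, Nars to Nars2 and Rars to Rars2). They lay below both for 1 pair (Tars to Tars2). Among all tested genes, single levels separated in this way for 18.3% with KO higher and 19.8% with KO lower. No such share was computed for ratios, so the counts of pairs are a description. For Iars to Iars2 the ratio was 3.53 and 3.76 in KO, against 3.05 and 2.73 in WT. With 2 libraries against 2, an exact two-sided permutation test cannot give a p below 1 in 3, so no pair was tested singly.

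**Figure D3:**
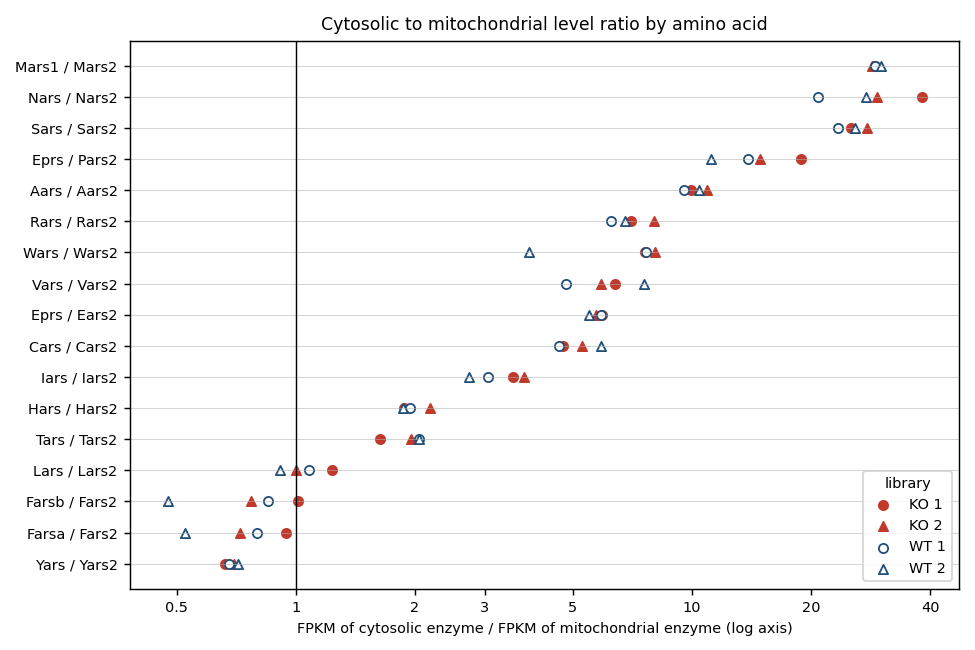
FPKM of each cytosolic enzyme divided by that of its mitochondrial counterpart (log axis) in KO 1, KO 2 (filled), WT 1 and WT 2 (open), with the line at equal levels. The pairs spread from 0.688 for Yars to Yars2 to 29.1 for Mars1 to Mars2 (geometric means over 4 libraries), while most pairs have KO and WT points side by side.

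The 8 enzymes of the multi-synthetase complex (Dars, Eprs, Iars, Kars, Lars, Mars1, Qars and Rars) had 7 positive log2 differences and 1 negative one, that of Qars, with a median of 0.086. The 12 other cytosolic enzymes had 8 positive and 4 negative differences and a median of 0.059. The 3 scaffold genes were all positive, with 0 past the test. Eef1e1 had 10.1 and 11.3 FPKM in KO, against 8.93 and 9.54 FPKM in WT (0.19, SE 0.12; limma adjusted p = 0.771). Aimp1 had 36.0 and 39.6 FPKM in KO, against 34.8 and 33.3 FPKM in WT (0.15, SE 0.10). Aimp2 had 26.9 and 25.6 FPKM in KO and 27.0 and 23.7 FPKM in WT, with overlap. By catalytic fold, the 10 cytosolic enzymes of class I had a median of 0.12 and the 10 of class II a median of 0.043.

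Proteins that work beside the synthetases showed 1 larger value. Among 11 partner genes (editing, transamidation, formylation, selenocysteine charging and tRNA export), 8 differences were positive and 3 negative, with a median of 0.06, and 0 passed the adjusted threshold. Qrsl1 encodes a subunit of the mitochondrial amidotransferase that converts glutamate on a misacylated tRNA to glutamine, since mitochondria charge glutamine tRNA through Ears2. Qrsl1 stood at 6.03 and 5.55 FPKM in KO, against 4.22 and 3.84 FPKM in WT, without overlap. Its log2 difference was 0.43 (SE 0.14, interval 0.10 to 0.77; limma adjusted p = 0.586).

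The other subunits of that enzyme, Gatb (-0.07) and Gatc (0.06), had overlapping libraries. Pstk, the kinase that prepares serine on the selenocysteine tRNA, had 12.0 and 11.0 FPKM in KO, against 10.2 and 8.86 FPKM in WT (0.25, and 0.16 without WT 2; limma adjusted p = 0.711). Mtfmt, which formylates the mitochondrial initiator tRNA, had 6.73 and 5.45 FPKM in KO and 6.59 and 7.78 FPKM in WT (-0.21, and -0.079 without KO 2). Tars3, a second cytosolic threonyl enzyme named Tarsl2 in the annotation and no member here, had 3.46 and 3.53 FPKM in KO, against 2.60 and 2.52 FPKM in WT (0.34, SE 0.15; limma adjusted p = 0.687).

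Genes of tRNA maturation had 14 positive and 7 negative differences among 21 tested, with a median of 0.077. Tsen15, a subunit of the tRNA splicing endonuclease, had 13.7 and 13.4 FPKM in KO, against 10.9 and 9.98 FPKM in WT (0.35, SE 0.11; limma adjusted p = 0.586). Its partner subunit Tsen34 had 13.7 and 13.3 FPKM in KO, against 15.6 and 14.4 FPKM in WT (-0.14). Rpp21, a protein of ribonuclease P, had 14.9 and 16.1 FPKM in KO, against 20.4 and 16.4 FPKM in WT (-0.22, and -0.071 without WT 1). Cytosolic elongation and release genes had 6 positive and 5 negative differences (median 0.012).

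In that list Eef1g, a subunit of the exchange factor that recharges elongation factor eEF1A, had 281 FPKM in each KO library, against 249 and 251 FPKM in WT (0.17, SE 0.10; limma adjusted p = 0.758). The methyltransferase genes Eef1akmt2 and Eef1akmt1 differed by 0.28 and -0.15. Mitochondrial translation genes had 6 positive and 6 negative differences among 12 tested (median 0.003). The mitochondrial initiation factor genes Mtif2 (15.7 FPKM in each KO library, against 13.0 and 13.3 FPKM in WT, 0.24) and Mtif3 (5.06 and 7.82 FPKM in KO, against 8.38 and 8.18 FPKM in WT, -0.34) lay on opposite sides. Guf1, an elongation factor of mitochondria, differed by 0.34, with WT 2 lowest at 5.98 FPKM. Single libraries carried much of these values: Guf1 differed by 0.075 without WT 2 and by 0.61 without WT 1, the difference of Mtif3 was -0.073 once KO 1 was left out and -0.61 once KO 2 was, and Eef1akmt1 came to -0.034 with KO 1 removed. None of these genes passed the adjusted threshold.

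Genes of the amino acid response had larger differences than the synthetases, a contrast that was not tested. Among 28 genes of this response other than synthetases, 19 had a positive and 9 a negative difference, with a median of 0.21. The median over these genes of the log2 level, centred on each gene's mean, was -0.051 and 0.145 in KO 1 and KO 2, against -0.121 and -0.057 in WT 1 and WT 2, so that KO 2 stood above the other 3 libraries and KO 1 was close to WT 2. At an unadjusted p under 0.05, 8 were higher in KO, where 3.1% of all tested genes were, and 1 was lower, where 4.19% were. By limma 0 passed the adjusted threshold, and the lowest adjusted p was 0.487. The choice of these genes was made with earlier results on ATF4 targets in these libraries known, so the count is a description.

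Atf4 mRNA itself was level, at 152 and 171 FPKM in KO and 155 and 163 FPKM in WT (0.02, SE 0.11, interval -0.25 to 0.29). The kinase gene Eif2ak4, whose product senses uncharged tRNA, had 3.55 and 4.32 FPKM in KO and 3.82 and 4.39 FPKM in WT (-0.05). Asns, the asparagine synthetase, had 37.2 and 32.6 FPKM in KO, against 30.1 and 25.4 FPKM in WT, without overlap (0.32, SE 0.13, and 0.20 without WT 2; limma adjusted p = 0.682). Ppp1r15a, the phosphatase subunit that reverses eIF2 phosphorylation, had 31.4 and 33.0 FPKM in KO, against 21.7 and 22.7 FPKM in WT (0.52, SE 0.10; limma adjusted p = 0.487).

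Psat1, of serine synthesis, differed by 0.57 (0.37 without KO 1) and Shmt2, the mitochondrial serine hydroxymethyltransferase, by -0.47. The transcription factor gene Ddit3 had 27.9 and 44.9 FPKM in KO 1 and KO 2, against 28.7 and 28.5 FPKM in WT, a difference of 0.30 that was -0.034 without KO 2. Ddit3 shares 68 exonic bases with Mars1 on the opposite strand.

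**Figure D4:**
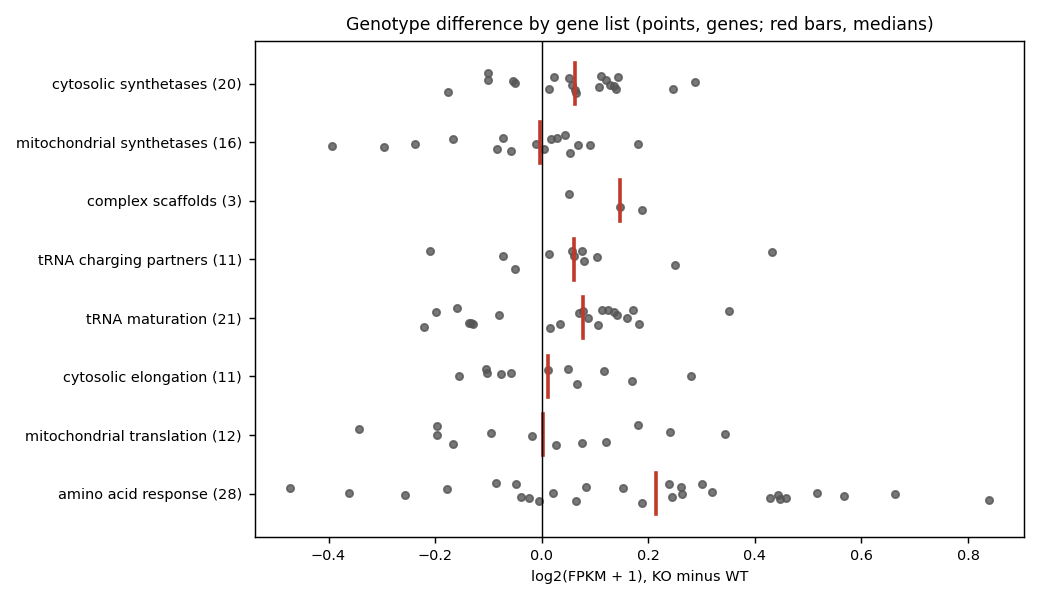
Log2(FPKM + 1) differences, KO minus WT, of all tested genes of 8 lists, 1 point a gene, with the number tested in brackets and the median of each list as a red bar. The amino acid response spreads from -0.47 to 0.84 around a median of 0.21, while the cytosolic synthetases lie between -0.17 and 0.29 and the mitochondrial ones between -0.39 and 0.18.

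Within the cytosolic class, 11 enzymes known as ATF4 targets (Aars, Cars, Eprs, Gars, Iars, Mars1, Nars, Sars, Tars, Wars and Yars) had 8 positive and 3 negative differences, with a median of 0.11. The other 9 had 7 positive and 2 negative differences, with a median of 0.056. Libraries did not overlap, with KO higher, for 6 of the 11 and for 1 of the 9, beside 18.3% of all tested genes, and the difference between these groups was not tested. WT 2 was the lowest library in all 6 (Aars, Eprs, Iars, Nars, Sars and Wars). The median over the 11 genes of the log2 level, centred on each gene's mean, was 0.012 and 0.077 in KO 1 and KO 2, against 0.002 and -0.111 in WT 1 and WT 2.

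Sequence upstream of the genes was searched for TGATGNAAN, the element that ATF4 and C/EBP proteins bind, on both strands, in the 250 bases before each RefSeq start (GRCm38.p6). The element was present for 3 of the 13 cytosolic enzymes that had a promoter entry (23.1%), for 0 of 14 mitochondrial enzymes, and for 3.89% of 27025 genes with an entry. Among amino acid response genes it was present for 6 of 24 (25.0%). Stretches that hold it are shown on the strand of the gene for 2 of the 3 synthetases, Gars and Tars, and for 3 response genes, so that the elements can be compared, with the match in capitals.
Gars: tggctgcgctATTTCATCAtgcaccgggc
Tars: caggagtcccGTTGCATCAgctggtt
Asns: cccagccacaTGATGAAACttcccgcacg
Chac1: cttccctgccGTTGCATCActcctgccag
Nupr1: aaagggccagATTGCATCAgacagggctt

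The stretch of Gars lies at chr6:55037960-55037988 on the plus strand and that of Tars at chr15:11399659-11399684 on the minus strand. Those of Asns (chr6:7693214-7693242, minus), Chac1 (chr2:119351038-119351066, plus) and Nupr1 (chr7:126625563-126625591, minus) come from genes of asparagine synthesis, glutathione breakdown and stress response. In Gars the match begins 31 bases before the RefSeq start and in Tars 16.

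Of the 3 cytosolic enzymes with a match, 1 had a positive difference without overlap and 2 a negative difference with overlap. Tars, the threonyl enzyme, had 36.4 and 41.6 FPKM in KO and 40.6 and 43.0 FPKM in WT, with overlap (-0.10, SE 0.11), and Gars also differed by -0.10, with a change of sign to 0.095 without KO 1. Iars and Yars2, the members with the largest moderated t of their class, had no match in this window. Of the response genes shown, Chac1 had 13.2 and 21 FPKM in KO and 12.3 and 17.1 FPKM in WT (0.19), and Nupr1 had 4.49 and 6.73 FPKM in KO and 3.93 and 5.13 FPKM in WT (0.25), both with overlap.

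The position of several members on the genome could bear on their values, which was not tested for single genes. Exons of 10 members overlap those of another gene in the table. Aars shares 1326 exonic bases with Exosc6 on the same strand, and Exosc6 was at practically 0 in all libraries. How fragments of the shared part were assigned is not given in the sources used here. Hars and Hars2, for histidine in the cytosol and in mitochondria, are neighbours on opposite strands of chromosome 18 and share 195 exonic bases. Hars had 25.0 and 25.3 FPKM in KO and 25.0 and 24.8 FPKM in WT, and Hars2 had 13.3 and 11.6 FPKM in KO and 12.9 and 13.4 FPKM in WT.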

How the data were processed

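Gene values in the 4 libraries were deposited by the authors as a table read here as FPKM, because no header states the unit and Cufflinks is among the tools in the submitters' processing notes (with STAR 2.5.0, Cuffdiff 2.2.1 and the build mm10, without role or order). Total RNA was made into stranded TruSeq mRNA libraries, per the labels' protocols. Of 22079 identifiers, 21984 matched GENCODE M21. The values do not give back whole fragments, and depth was estimated from genes with 1 transcript, taking fragments as 200 bases long. Only values inside a preset range entered this estimate, so it is a rough guide.

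Values were taken as log2(FPKM + 1), which understates changes of low genes, for the 10407 genes whose mean reached 1 FPKM. KO was compared with WT by limma 3.58.1 in R 4.3.3 (eBayes with trend, two-sided, genotype only), with adjusted p under 0.05 as the threshold. The fit was also run on simulated data, in which every difference put in was larger than that of any member. That run therefore does not show how well differences of the members' size are found. Alternatives were other scalings, filters, offsets and variance models, a replicate block and each library left out.

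Members and lists were chosen with earlier results of these data known. Values per library are given for the 6 members of each class with the largest absolute moderated t and the 2 most and 2 least abundant. Further members (Aars, Tars, Hars, Hars2, Ears2, and the response genes Chac1 and Nupr1) were named after their values were seen. Prorp and Mtrfr were not matched. Promoter sequences are from RefSeq (GRCm38.p6), which matched 27 of 36 members. In 23 of 28 windows of members, bases past the start were found in a GENCODE transcript of the gene, read on its strand. For the other windows of members the strand was not settled this way, and windows of response genes were not checked. The stretch of 1 synthetase is not reported here.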

Additional observations from a re-analysis of the deposited data

How the results depend on the processing

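No member passed the adjusted threshold under any of 11 alternatives. Over all genes 0 were called, except 5 without KO 1 and 8 without WT 1, so the count ran from 0 to 8 with a library left out. Members at an unadjusted p under 0.05 were 0 to 2 with a library left out, beside 3.06% to 11.8% of all tested genes. Same-numbered libraries deviated together only weakly (r = 0.151). With 2 numbers this cannot settle whether they were prepared as pairs. With the replicate block 2 members, Wars and Fars2, had an unadjusted p under 0.05 by limma. Beside them stood 10.1% of all tested genes, against 7.29% in the main fit. With the block, 0 members passed the adjusted threshold. The cytosolic median ran from 0.052 to 0.099 and the mitochondrial median from -0.057 to 0.005 with a library left out. Their difference of 0.066 ran from 0.053 to 0.134, at 0.134 without KO 1 and 0.11 without WT 2. Without the members whose exons overlap another gene, an alternative chosen after seeing the data, the mitochondrial median was 0.017 and the difference 0.047. Members with KO libraries all above the WT libraries were 13 to 19, and all below 5 to 11, with 3 libraries, where 29.9% to 36.1% and 32.2% to 39.3% of all genes were. Of 17 named synthetases 14 kept their sign under all alternatives. With a library left out, Gars ran from -0.294 to 0.095 (positive without KO 1), Mars2 from -0.003 (without KO 2) to 0.111 and Wars2 from -0.434 to 0.101 (without WT 2). Among related genes, Aimp2 ran from -0.04 (without WT 2) to 0.141, Atf4 from -0.066 to 0.109 (negative without KO 2 or WT 1, -0.012), Ddit3 from -0.034 (without KO 2) to 0.634 and Eif2ak4 from -0.162 to 0.063 (positive without KO 1 or WT 2, 0.032). The causes were not tested. With 2 libraries a genotype, intervals of single members span about 0.2 to 0.6 on either side.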
